A study of Homo sapiens with 6 samples.

Results

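The expression of 9 genes of the tight junction was followed in UM-SCC1 cells that received miR-204-5p mimics or control mimics. The genes were CLDN1, CLDN4, CLDN7, CLDN12, OCLN, MARVELD2, F11R, TJP1 and TJP3, taken by name from a deposited table of 14959 genes. All 9 were found there, each once. UM-SCC1, the only line sequenced, is an established line from a human squamous cell carcinoma of the head and neck (HNSCC). Mimics are synthetic double-stranded RNAs that act as a mature miRNA after transfection, and control mimics are the matching control oligos. Each group held 3 libraries from independent experiments, harvested 48 h after transfection, and the comparison asked which mRNAs differ when the cells are given miR-204-5p. Values are FPKM, fragments scaled to transcript length and to the mapped fragments of the library. The level of the miRNA itself was not analysed here.

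Tight junctions seal the space between neighbouring epithelial cells near their apical side and separate apical from basolateral membrane. Claudins form the strands and set which ions and solutes pass, occludin and its relative tricellulin belong to the MARVEL family and sit in the strands or at corners where cells meet, and JAM-A is an immunoglobulin-like adhesion molecule. The ZO scaffolds bind the tails of these membrane proteins and tie them to actin. In stratified squamous epithelium, claudin-1 is needed for the water barrier of the skin.

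The sequences by which miR-204-5p finds its targets are shown first, because they decide which members carry a match to the mimic. The mature miRNA is given from RefSeq (GRCh38.p14, minus strand, chr9:70810031-70810052) with its seed, bases 2 to 8, in capitals. A match to the whole seed followed by A is an 8mer (AAAGGGAA), to the whole seed alone a 7mer-m8 (AAAGGGA) and to bases 2 to 7 followed by A a 7mer-A1 (AAGGGAA).
hsa-miR-204-5p: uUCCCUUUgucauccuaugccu

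The 3'UTR of the transcript listed for each gene was read from GENCODE 29 (GRCh38), along the transcript strand only. No member held an 8mer or a 7mer-m8. A 7mer-A1, the weakest of the 3 classes, was found once each in CLDN1 and MARVELD2, that is in 2 of the 8 members with an annotated 3'UTR, and 23.7% of all 13642 genes with one held a match of any class. The CLDN1 match lies in exon 4 on the minus strand of chromosome 3, and the MARVELD2 match in exon 6 on the plus strand of chromosome 5. The listed CLDN12 transcript has no annotated 3'UTR, and the longest 3'UTR of that gene held no match. Both 7mer-A1 matches are printed with their surroundings, the match in capitals.
CLDN1, chr3:190306443-190306472: agtgctatactAAGGGAAagaattgaggaa
MARVELD2, chr5:69442311-69442340: aggatttttctAAGGGAAaaagggtgacat

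All 9 genes were expressed, with mean FPKM over the 6 libraries above 1. In cells with control mimics CLDN1 was the most abundant, at 183 ± 2.07 FPKM (SD, n = 3), followed by F11R at 91.0 ± 11.6 and CLDN7 at 81.0 ± 6.86, whose libraries overlapped. CLDN4 at 19.4 ± 0.922, TJP1 at 11.3 ± 0.674 and TJP3 at 7.16 ± 0.381 came next, each apart from its neighbours in that order in every control library. CLDN12, OCLN and MARVELD2 were lowest, at 5.33 ± 0.907, 4.39 ± 0.129 and 4.05 ± 0.525 FPKM, and neighbours among them overlapped. With miR-204-5p mimics CLDN7 stood above F11R in every library, second only to CLDN1, and CLDN4, TJP1, CLDN12 and TJP3 overlapped, with 1 library far from the others for both CLDN4 and CLDN12.

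**Figure D1:**
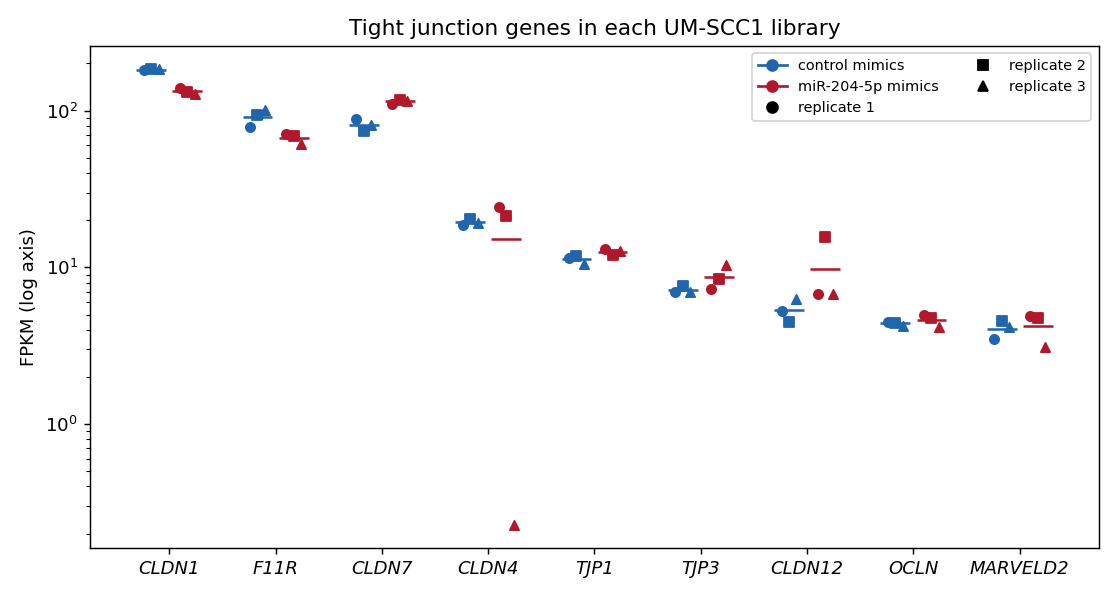
FPKM (log axis) of the 9 tight junction genes in each library, ordered by their level with control mimics, with points by replicate and a line at the group mean. CLDN1 and F11R lie lower and CLDN7 higher in all 3 libraries with miR-204-5p mimics, and CLDN4 falls to 0.228 FPKM in 1 of them.

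The 2 groups were compared by limma on log2(FPKM + 1) over all genes of the table, with Benjamini-Hochberg adjusted p-values. Log2 fold changes (log2FC, miR-204-5p mimics minus control mimics) are on this scale, which understates the change of low genes, and are given with their standard error (SE). CLDN1 and F11R fell and CLDN7 rose with miR-204-5p mimics, and 6 members did not pass an adjusted p of 0.05. The 3 called members of 9 stand beside 40.8% of all genes called in either direction. For the 2 that fell the share over all genes was 16.8%, and for the 1 that rose it was 23.9%. That balance over all genes depended on scaling, with 3578 higher and 2520 lower as given, 3080 and 2885 at equal sums, 3079 and 2969 at equal medians and 3043 and 3026 after quantile normalization. The median log2FC was 0.057 over the 9 members and 0.032 over all genes. For 5 members the libraries of the groups did not overlap, 3 higher and 2 lower with miR-204-5p mimics, which was so for 53.6% of all genes. For each of these 5 the two-sided exact permutation p was 0.1, the smallest this design can give. As the RNA came from whole cultures, fewer cells with an mRNA and less of it per cell cannot be told apart.

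**Figure D2:**
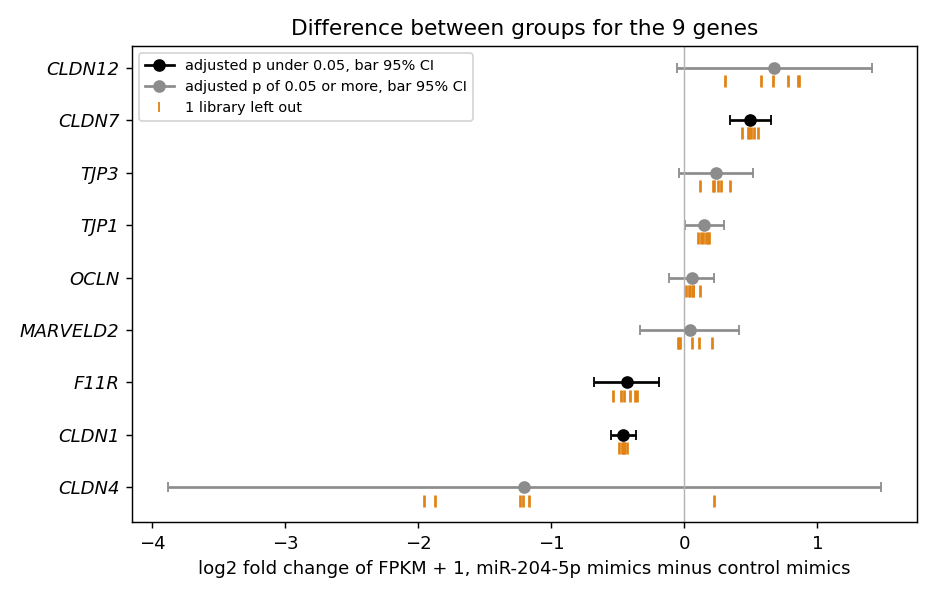
Log2 fold change of FPKM + 1 (miR-204-5p mimics minus control mimics) for the 9 genes, with limma's 95% confidence interval, and below each bar the values with 1 library left out. CLDN7 lies above 0 and CLDN1 and F11R below 0 throughout, while CLDN4 moves from −1.20 to 0.22 when 1 library is left out.

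CLDN1 (ENSG00000163347, minus strand of chromosome 3 from 190305701 to 190322475, 4 exons) encodes claudin-1, a barrier-forming claudin. It was measured at 139, 133 and 128 FPKM with miR-204-5p mimics and at 181, 185 and 183 FPKM with control mimics. Every library with the miRNA lay below every control library. The group means were 133 ± 5.55 and 183 ± 2.07 FPKM (SD, n = 3). CLDN1 thus fell by 27.3% (log2FC −0.46, SE 0.040, adjusted p = 0.000343). The 3'UTR of CLDN1 carries one of the 7mer-A1 matches printed above, 1816 bases into its 2576 bases.

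CLDN7 (ENSG00000181885, minus strand of chromosome 17 from 7259903 to 7262478, 4 exons) encodes claudin-7, found both in tight junctions and along the basolateral membrane of epithelial cells. Its levels were 111, 117 and 116 FPKM with miR-204-5p mimics and 87.8, 74.1 and 81.2 FPKM with control mimics. The groups did not overlap, and the libraries with the miRNA were the more alike. The means were 115 ± 3.44 and 81.0 ± 6.86 FPKM (SD, n = 3). CLDN7 thus rose by 41.3% (log2FC 0.50, SE 0.0648, adjusted p = 0.00152). ELP5 on the opposite strand overlaps the end of CLDN7 and was measured at 10.3 to 12.8 FPKM, and AC003688.1 overlaps on the same strand and is not in the table.

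CLDN1 and CLDN7 together gave most of the claudin mRNA, and their proportion differed between the groups. This comparison was chosen after the values had been seen. CLDN1 stood above CLDN7 by 1.26, 1.13 and 1.10 times with miR-204-5p mimics and by 2.06, 2.50 and 2.25 times with control mimics. The ratio averaged 1.16 ± 0.0813 and 2.27 ± 0.219 (SD, n = 3), with no overlap between groups (exact permutation p = 0.1). As CLDN1 was lower and CLDN7 higher in every library with the miRNA, this outcome was fixed beforehand and is no further evidence. Because both genes are read in the same library, scaling each library by a single factor leaves the ratio of CLDN1 to CLDN7 unchanged. Quantile normalization can change it. Of the summed FPKM of the 17 claudins in the table, CLDN1 made up 59.2% ± 1.54 with control mimics but 45.8% ± 2.10 with miR-204-5p mimics, and CLDN7 26.2% ± 1.86 and 39.4% ± 3.15 in the same order. Leaving CLDN4 out, the summed claudin FPKM was 276 ± 7.32 in the libraries with the miRNA. In the control libraries it was 290.0 ± 5.52, and these sums overlapped between groups (exact permutation p = 0.2).

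**Figure D3:**
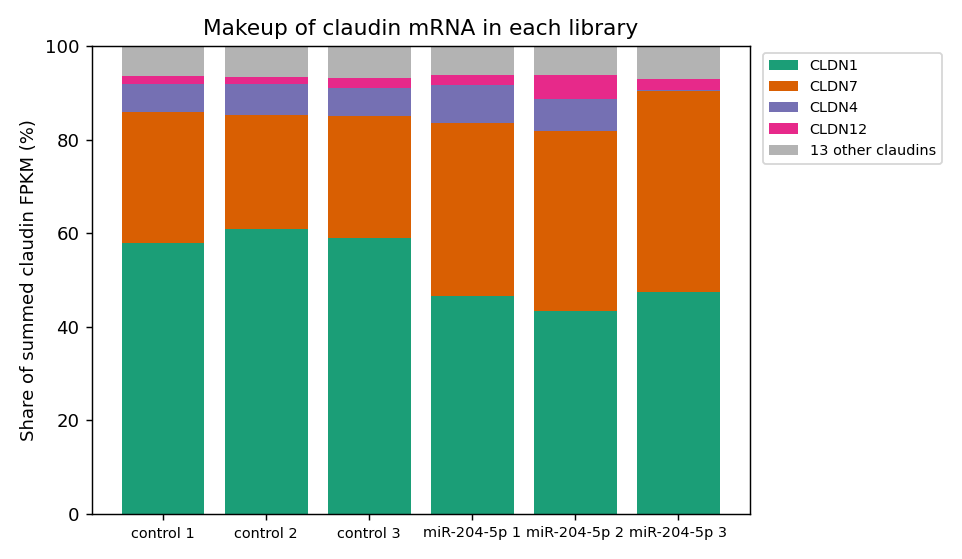
Share (%) of each claudin in the summed claudin FPKM of each library, 3 with control mimics and 3 with miR-204-5p mimics, from 17 claudins in the table. CLDN1 takes 57.9% to 60.9% of the control libraries and 43.4% to 47.4% of those with miR-204-5p mimics, and CLDN7 24.4% to 28.1% and 37.0% to 43.0%.

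The starts of the member genes were read for the E-box CAGGTG, searched also as its reverse complement CACCTG, which repressors of the SNAI family bind. RefSeq windows (GRCh38.p14) of 250 bases before to 50 after a start were at hand for 8 of the 9 genes, 14 windows in all, and F11R had none. The motif stood in 5 of these 14 windows, belonging to CLDN7, OCLN, TJP1 and TJP3, and in 20.6% of all 35116 windows. The window at the start of the listed CLDN7 transcript held 5 copies, and 0.0940% of all windows held 5 or more. CLDN1, CLDN4, CLDN12 and MARVELD2 held none in this window. The 3 copies nearest to the CLDN7 start, at −20, −9 and 5, are shown because CLDN7 is the member that rose, in neighbouring stretches along the minus strand with the motif in capitals.
CLDN7, chr17:7262481-7262510: cctacatatactCAGGTGcgcccCACCTGt
CLDN7, chr17:7262456-7262485: cctgtccgcccgCACCTGctggctcacctc
The gene and motif were picked after the values had been seen, and no binding was measured here.

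CLDN4 (ENSG00000189143, plus strand of chromosome 7 from 73827744 to 73832684, 2 exons) encodes claudin-4, a claudin of many simple epithelia and carcinomas. It was listed at 24.2, 21.3 and 0.228 FPKM with miR-204-5p mimics and at 18.5, 20.4 and 19.2 FPKM with control mimics. Replicates 1 and 2 with the miRNA lay above all control libraries and replicate 3 far below them. By the depth inferred from the table, 0.228 FPKM corresponds to about 15 fragments on the listed transcript, against 1086 to 1417 in the other 5 libraries. The listed transcript, 1 of 5 annotated, has 4163 bases, against 1831 in the transcript with the longest 3'UTR. How fragments of the other CLDN4 transcripts were counted is not given, and their part in the low value was not tested. The log2FC was −1.20 (95% confidence interval −3.88 to 1.48, adjusted p = 0.433), and without miR-204-5p mimics replicate 3 it was 0.22 (adjusted p = 0.0620). The coefficient of variation with miR-204-5p mimics was 85.8%, whereas 95% of all genes averaging 1 FPKM or more stood under 25.9%. No other gene of the annotation overlaps the listed CLDN4 transcript.

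Among the genes with a profile over the 6 libraries most like that of CLDN4, by Pearson's r on log2(FPKM + 1), were CYB5B, ARPC4, USP8 and C1QTNF3, with r from 0.981 to 0.999. Each of them was lowest in the same library, replicate 3 with miR-204-5p mimics. CYB5B, which encodes a cytochrome b5 of the outer mitochondrial membrane, was at 7.22 FPKM there and at 34.0 to 37.6 in the other 5 libraries. ARPC4, a subunit of the actin-nucleating ARP2/3 complex, was at 16.9 FPKM against 31.2 to 35.7. USP8 differed far less, at 2.47 against 2.94 to 3.04 FPKM, so that a high r here marks the same low library rather than the same depth of fall.

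CLDN12 (ENSG00000157224, plus strand of chromosome 7 from 90383721 to 90413203, 5 exons) encodes claudin-12, an atypical claudin tied to calcium transport in the gut. Its levels were 6.78, 15.7 and 6.80 FPKM with miR-204-5p mimics and 5.23, 4.48 and 6.29 FPKM with control mimics. Every library with the miRNA was above every control library, and replicate 2 was more than 2 times the next. The log2FC was 0.68 (95% confidence interval −0.057 to 1.41, adjusted p = 0.125), and 0.31 without miR-204-5p mimics replicate 2 (adjusted p = 0.124). The listed transcript has 1163 bases, against 3565 in the transcript with the longest 3'UTR, and it begins inside GTPBP10, a gene of the same strand. GTPBP10 was also highest in that library, at 2.80 FPKM against 1.22 to 2.03 in the others, and its part in the CLDN12 value was not tested.

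OCLN (ENSG00000197822, plus strand of chromosome 5 from 69492292 to 69558104, 9 exons) encodes occludin, the first strand protein known. It was measured at 4.94, 4.73 and 4.17 FPKM with miR-204-5p mimics and at 4.48, 4.45 and 4.24 FPKM with control mimics, and the groups overlapped. The log2FC was 0.057 (95% confidence interval −0.11 to 0.23, adjusted p = 0.561). An antisense gene, AC145146.1, overlaps OCLN and is not in the table.

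MARVELD2 (ENSG00000152939, plus strand of chromosome 5 from 69415065 to 69442852, 6 exons) encodes tricellulin, which seals the corners between cells, and lies next to OCLN on the chromosome. Its levels were 4.88, 4.74 and 3.12 FPKM with miR-204-5p mimics and 3.49, 4.52 and 4.15 FPKM with control mimics. Replicate 3 with the miRNA was the lowest of all 6 and replicate 1 the highest, so the groups overlapped. The log2FC was 0.041 (95% confidence interval −0.33 to 0.41, adjusted p = 0.861). MARVELD2 carries the other 7mer-A1 match of the members.

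F11R (ENSG00000158769, minus strand of chromosome 1 from 160995211 to 161021343, 11 exons) encodes JAM-A, an adhesion molecule that also recruits polarity proteins to new contacts. It was at 70.8, 68.6 and 61.2 FPKM with miR-204-5p mimics and at 78.3, 93.8 and 101 FPKM with control mimics. The groups did not overlap, and control replicate 1 was the closest to the libraries with the miRNA. The means were 66.9 ± 5.03 and 91.0 ± 11.6 FPKM (SD, n = 3). F11R thus fell by 26.5% (log2FC −0.43, SE 0.102, adjusted p = 0.0155). Without control mimics replicate 2 the log2FC was −0.41 and the call was lost (adjusted p = 0.0522). F11R holds none of the seed matches in its 3'UTR of 3660 bases. AL591806.3, a readthrough gene on the same strand, overlaps it and was at 0.0644 to 0.744 FPKM.

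TJP1 (ENSG00000104067, minus strand of chromosome 15 from 29699367 to 29822503, 28 exons) encodes ZO-1, the main scaffold under the claudin strands. Its levels were 13.1, 11.9 and 12.7 FPKM with miR-204-5p mimics and 11.5, 11.8 and 10.5 FPKM with control mimics. Every library with the miRNA was above every control library, by little. The log2FC was 0.15 (95% confidence interval 0.0043 to 0.30, unadjusted p = 0.0453, adjusted p = 0.0937), which did not pass the threshold.

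TJP3 (ENSG00000105289, plus strand of chromosome 19 from 3708109 to 3750812, 21 exons) encodes ZO-3, a scaffold restricted to epithelia. It was at 7.29, 8.47 and 10.4 FPKM with miR-204-5p mimics and at 6.92, 7.60 and 6.96 FPKM with control mimics. The groups overlapped at replicate 1 with the miRNA, which lay below control replicate 2. The log2FC was 0.24 (95% confidence interval −0.040 to 0.52, adjusted p = 0.150). Without that mimics replicate 1 it was 0.35 (adjusted p = 0.0419).

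Beside the 9 members stood 56 further tight junction genes written down from general knowledge, of which 48 were in the table and 11 of those had a mean FPKM under 1. Of the 48, 8 rose and 12 fell with miR-204-5p mimics at a limma adjusted p under 0.05, and 28 did not pass. The 20 called of 48 stand close to the 40.8% called over all genes, with 12 lower beside a background of 16.8% and 8 higher beside 23.9%. The median log2 fold change of the 48 was −0.025, against 0.032 over all genes.

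**Figure D4:**
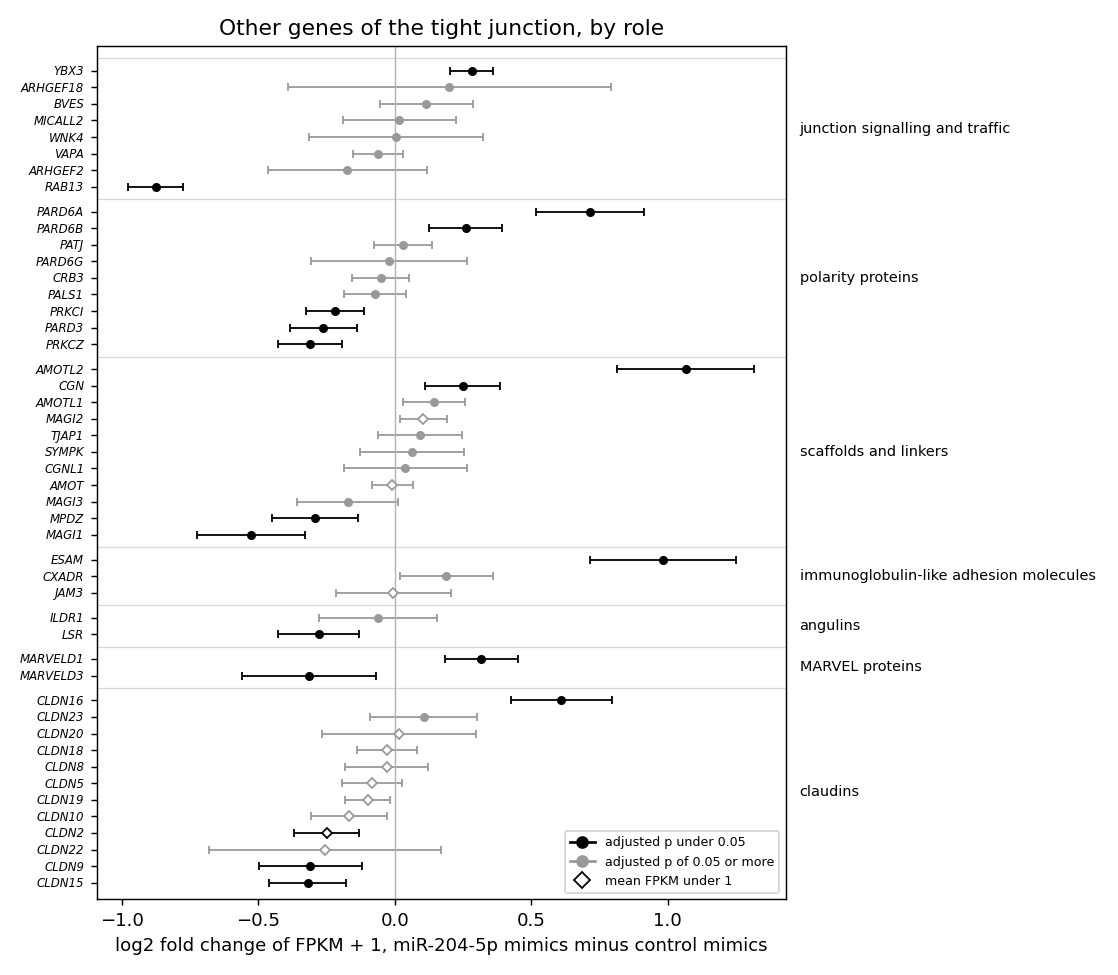
Log2 fold change of FPKM + 1 (miR-204-5p mimics minus control mimics) with limma's 95% confidence interval for further tight junction genes, grouped by role, with open symbols for genes of mean FPKM under 1. Higher and lower genes occur side by side within the claudins, MARVEL proteins, scaffolds, polarity proteins and signalling genes.

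Among the 12 further claudins of this list that were in the table, which leaves out CLDN24, 8 had a mean FPKM under 1. CLDN16, known from magnesium reabsorption in the kidney, rose from 1.92 ± 0.223 to 3.46 ± 0.192 FPKM (SD over 3 libraries; log2FC 0.61, adjusted p = 0.00135). CLDN15, a cation-permeable claudin of the gut, fell from 8.79 ± 0.477 to 6.85 ± 0.249 FPKM (log2FC −0.32, adjusted p = 0.00597). CLDN9 and CLDN2 fell as well, at levels of 1.99 ± 0.133 and 0.460 ± 0.0666 FPKM with control mimics. Of the other MARVEL proteins, MARVELD1 rose from 10.2 ± 0.498 to 12.9 ± 0.554 FPKM (log2FC 0.32, adjusted p = 0.00500) and MARVELD3 fell (log2FC −0.31, adjusted p = 0.0491). LSR, which places tricellulin at cell corners, fell from 56.2 ± 0.134 to 46.3 ± 3.86 FPKM (log2FC −0.28, adjusted p = 0.0124). ESAM was the adhesion molecule that rose, from 1.23 ± 0.0750 to 3.43 ± 0.650 FPKM, and CXADR did not pass (log2FC 0.19, adjusted p = 0.0767).

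Scaffolds and linkers moved in both directions. AMOTL2, an angiomotin that joins junctions to Hippo signalling, had the highest log2FC of the 48 genes, rising from 17.6 ± 2.80 to 37.6 ± 0.852 FPKM (SD over 3 libraries; log2FC 1.07, adjusted p = 0.000523). CGN, which encodes cingulin, rose by 0.25 on the log2 scale (adjusted p = 0.0144). MAGI1 fell from 1.43 ± 0.153 to 0.686 ± 0.141 FPKM (log2FC −0.53, adjusted p = 0.00311), and MPDZ, a scaffold with many PDZ domains, from 3.22 ± 0.116 to 2.45 ± 0.187 FPKM. The values of CGN, ESAM and MARVELD3 rest on short listed transcripts of 564, 560 and 850 bases, where the longest of each gene have 5091, 2336 and 2912.

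The polarity proteins, which place the junction along the side of the cell, also moved in both directions. PARD3 fell from 8.10 ± 0.177 to 6.60 ± 0.262 FPKM (SD, n = 3), and the atypical protein kinases C it binds, PRKCI and PRKCZ, fell with log2FC of −0.22 (adjusted p = 0.00911) and −0.31 (adjusted p = 0.00322). PARD6A and PARD6B, which bridge these kinases to PARD3, rose with log2FC of 0.71 (adjusted p = 0.000941) and 0.26 (adjusted p = 0.0108). The Crumbs complex genes CRB3, PALS1 (listed as MPP5) and PATJ did not pass, with log2 fold changes of −0.051, −0.073 and 0.030. RAB13, a small GTPase that carries junction proteins to the membrane, fell from 129.7 ± 2.95 to 70.2 ± 2.97 FPKM (log2FC −0.88, adjusted p = 5.97e-05). YBX3, the ZO-1 partner known as ZONAB, rose from 267 ± 3.43 to 325 ± 4.56 FPKM (log2FC 0.28, adjusted p = 0.000939).

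In the longest 3'UTR of the protein-coding transcripts, a seed match of at least 7 bases was found in 6 of the 12 further genes that fell, in 0 of the 8 that rose and in 11 of the 28 that did not pass, against 27.1% of all genes with a 3'UTR. In the 3'UTR of the listed transcripts, as read for the members, the counts were 4 of 12, 0 of 8 and 8 of 28, where a listed transcript with no annotated 3'UTR counted as no match, against 23.7% of all genes whose listed transcript has one. Among the 6 were RAB13 and MAGI1 with an 8mer, MARVELD3 and PRKCI with a 7mer-m8 and MPDZ with a 7mer-A1. This is a count over a short list and was given no test. Both 8mers lie in the listed transcripts, in exon 8 of RAB13 and exon 25 of MAGI1, on the minus strand, and MAGI1 holds 4 matches in all. An 8mer was not limited to genes that fell. Among those that did not pass, CLDN19, AMOT and VAPA held an 8mer in the listed 3'UTR. MAGI2 and MAGI3 held an 8mer in the longest 3'UTR only. CLDN19, AMOT and MAGI2 had a mean FPKM under 1. VAPA and MAGI3 had log2FC of −0.061 (adjusted p = 0.243) and −0.17 (adjusted p = 0.123). The 8mers of RAB13 and MAGI1 are printed as the strongest matches among junction genes that fell, to set beside the 7mer-A1 of CLDN1.
RAB13, chr1:153981942-153981971: gaaaaaggagaAAAGGGAAaagcagaaagg
MAGI1, chr3:65356466-65356495: cagccaccgagAAAGGGAAgaggcgaatct

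Depth, inferred from the table, was 13.1 to 16.4 M fragments per library, with ranges that overlapped between groups. All 8 epithelial markers (KRT5, KRT14, KRT6A, KRT17, TP63, DSG3, CDH1, EPCAM) had a mean FPKM of at least 1, with summed levels of 516 to 618 FPKM with miR-204-5p mimics and 705 to 735 with control mimics. Of 12 markers of leukocytes, endothelium and fibroblasts, 10 were in the table and 2, CD14 and COL1A1, had a mean FPKM of at least 1. The summed levels of all 10 were 23.9 to 24.6 FPKM with miR-204-5p mimics and 25.7 to 27.2 with control mimics. PTPRC, PECAM1 and CDH5 were under 1 FPKM in every library, and CDH5 was at 0 in 1. Of the epithelial markers, TP63 was at 23.9 to 30.1 FPKM with miR-204-5p mimics against 54.7 to 57.6 with control mimics. DSG3 was at 3.80 to 4.22 FPKM against 8.79 to 9.33 in the same order. Single markers did not all follow these sums. CDH1 was at 36.0 to 37.9 FPKM with miR-204-5p mimics against 27.4 to 28.9, and KRT6A at 2.34 to 3.36 against 0.970 to 1.67. CD14 was at 11.8 to 13.5 FPKM against 15.8 to 16.6 with control mimics, whereas COL1A2 was at 0.592 to 0.625 against 0.298 to 0.356 and PDGFRB at 0.326 to 0.383 against 0.160 to 0.194. The part of these differences in those of the junction genes was not tested.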

How the data were processed

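RNA-seq of UM-SCC1 cells, 3 libraries per group, was used as deposited. The FPKM values were computed by the authors. The submitters' processing notes name HISAT2, StringTie and the build hg38, and versions, annotation and filters are not given in the sources used here. Each gene is listed with 1 transcript and its length, and 14951 of 14959 listed transcripts were found in GENCODE 29, 14844 with the same coordinates. How fragments of a gene's other transcripts were counted is not given. The authors' own fold changes, p-values and FDR in the table were not used.

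The table holds no counts, so the lmFit and trended eBayes functions of limma 3.58.1 (R 4.3.3) were run on log2(FPKM + 1) over all 14959 genes, unfiltered, two-sided, with Benjamini-Hochberg adjustment at 0.05. Single ratios were compared by exact permutation of the libraries. Depth was inferred in Python 3.11.15 (scipy 1.17.1) from the step of FPKM times length in 1175 genes with 1 annotated transcript, of whose values under 20 fragments 22.2% to 26.1% were whole within 0.02, against 3.29% to 3.72% at the median step. The fit and the depth estimate were tested on simulated data. With 200 of 14959 genes changed, the fit recovered 88 of 100 at a log2FC of 1 in size and 56 of 100 at 0.5. It called 6 unchanged genes, and the depth step was found in 10 of 10 simulated libraries. As 6098 genes were called in the data, these rates need not carry over. A gene that did not pass is not thereby shown to be unchanged. Every limma p-value rests on the spread between libraries of independent experiments, which eBayes moderates by that of all genes.

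The members and lists were chosen with earlier results of these data known. Genes could be named if they were members, on the list of further junction genes or markers, overlapping a member, among the 5 most like CLDN4, or among the genes with 1 library far below the others. Some genes counted in the lists are not reported here by name or drawn.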

Additional observations from a re-analysis of the deposited data

How the results depend on the processing

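Alternatives were a pseudocount of 0.1, a filter at 1 FPKM on average, the replicate block, equal sums, equal medians, quantile normalization, no trend and each library left out in turn. Of 117 fold changes of members under them, 109 kept their direction and side of the threshold. The reversed ones were OCLN with quantile normalization (−0.0093), MARVELD2 with quantile normalization (−0.024) and with 1 library left out (−0.050 to 0.21, where leaving out miR-204-5p mimics replicate 1 or 2 or control mimics replicate 1 gave −0.050, −0.034 and −0.042), and CLDN4 with 1 library left out (−1.96 to 0.22, above 0 only without miR-204-5p mimics replicate 3). CLDN1 and CLDN7 were called under all 13 alternatives, with log2 fold changes from −0.51 to −0.43 and from 0.43 to 0.56, and F11R under 12 of 13, from −0.54 to −0.35. With 1 library left out, members that rose numbered 1 to 2 (2 without miR-204-5p mimics replicate 1, where TJP3 passed) and members that fell 1 to 2 (1 without control mimics replicate 2, where F11R did not pass). The cause was not tested. Leaving out 1 library gave 2876 to 3138 genes that rose and 2045 to 2271 that fell among all genes.

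With the replicate block, 1 member rose and 2 fell, as without it, and among all genes 2999 rose and 2097 fell, against 3578 and 2520. Deviations of libraries with the same number correlated at −0.040, −0.021 and −0.108, so the numbers were not taken as pairs, and no library correlated best with its own number. The count of members with a seed match was 2 in the longest 3'UTR too. Inferred fragments were 73 to 291 per library for CLDN12 and 165 to 256 for MARVELD2, the fewest among the members apart from CLDN4 in 1 library.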

Other observations

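CLDN4 was one of 5 genes in which 1 library stood under 0.1 times the lowest of the other 5 while that lowest was at least 5 FPKM, among 7538 genes with such a level. In miR-204-5p mimics replicate 2, HSPA1A was at 0.945 FPKM and at 116 to 136 elsewhere, and AC118553.2 at 0.405 and at 5.63 to 9.77 elsewhere. In control mimics replicate 1, AC105052.3 was at 0.841 FPKM and at 18.5 to 25.7 elsewhere, and FAM25C was listed at 0 and at 5.72 or more elsewhere. HSPA1A and FAM25C have near-identical copies in the genome that can share reads, so their values are uncertain. CLDN4 was the only one of the 5 that was low in miR-204-5p mimics replicate 3. On the high side CLDN12 was one of 30 genes among 11741 (second highest library at least 1 FPKM) in which the highest library was at least 2 times the next, and 3 of the 30 were high in miR-204-5p mimics replicate 2.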
